A study of Mus musculus with 6 samples.

Results

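The genes described here encode the core histones H2A, H2B, H3 and H4 and the linker histone H1, in the pancreas of 6 mice aged 3 months. They were chosen by symbol (the Hist1 to Hist4 clusters, the H2af genes, H3f3a, H3f3b, H1f0 and H1fx), and entries described as pseudogenes were left out. Of 29721 genes listed, 66 matched by symbol and 63 stayed after 3 pseudogenes were removed. These were 52 replication-dependent genes, 10 variant genes and H3f3aos, a transcript from the strand opposite H3f3a that matches by its name and is not a histone gene. All 6 mice carried Ela-myc, a Myc transgene under an elastase promoter that drives expression in acinar cells, the digestive enzyme makers of this organ. The WT group was wild type for Parp2 and the PARP2 KO group had Parp2 knocked out, with 3 animals in each. The labels name the tissue as pancreas and do not say whether a sample held tumour, while the extraction protocol speaks of tumour. The libraries are bulk tissue, so fewer cells of a type and less RNA per cell cannot be told apart.

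Core histones form the spool around which DNA is wound, and H1 sits where DNA enters and leaves that spool. Replication-dependent histone genes lie in clusters, are transcribed mainly in S phase and normally end their mRNA at a short stem-loop that is bound by Slbp, without a poly(A) tail. Variant histone genes lie apart, are transcribed through the cell cycle as polyadenylated mRNA, and supply histones for placement outside replication. Parp2 encodes an enzyme that attaches ADP-ribose to proteins at DNA breaks, and histones are among its acceptors.

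Parp2 itself was counted at 40.5, 36.4 and 37.5 CPM (counts scaled by library size and a normalisation factor) in wild-type libraries 1, 2 and 3, and at 14.4, 12.4 and 13.6 CPM in knockout libraries 1, 2 and 3. The groups did not overlap, and the log2 fold change, knockout minus wild type here and throughout, was -1.499 ± 0.097 (SE, n = 3 against 3, edgeR adjusted p = 0.00201). Read totals ran from 28105021 to 32055565 per library. Of 17652 genes tested, 53.0% were called at an adjusted p under 0.05, 28.0% higher and 25.0% lower in the knockout, so every count of histone genes below stands against a large background. When libraries were scaled to their totals alone, the median log2 fold change of all tested genes moved by 0.40, and 7475 genes were called higher and 2160 lower in place of 4938 and 4415.

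The summed levels of several cell type markers differed between the genotypes. The summed level of 20 acinar markers was 183820 to 272140 CPM in the wild type and 119 to 108090 CPM in the knockout. None of the 20 was called, and knockout library 3 had the lowest sum. The 12 fat markers were all called higher, at 1317 to 2713 CPM in the wild type and 13391 to 18006 CPM in the knockout. The 12 T cell markers were all called higher too, from 76.5 to 211 CPM against 544 to 1367 CPM, as were 10 of 12 B cell and plasma cell markers, with 2 lower, from 700 to 1161 CPM against 2093 to 2783 CPM. Of the other lists, 6 of 8 endothelial markers were called higher and none lower, 4 of 14 islet and 3 of 10 duct markers lower and none higher, and macrophage markers split 2 higher and 2 lower of 10. Fibroblast markers split 2 higher and 3 lower of 10, erythroid markers 2 higher of 6 tested, and testis germ cell markers 1 higher and 1 lower of 3 tested. No marker present among the listed genes was at 0 in all 3 libraries of a genotype. The part of these cell types in the histone results was not tested. Without knockout library 3, 7 replication-dependent and 3 variant histone genes were called lower, beside 7 and 4 with all libraries. Knockout libraries 1 and 2 still had acinar sums of 28153 and 108090 CPM, below every wild-type library. These counts are therefore no test of cell makeup.

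The sequences below are shown because the 3′ end decides how a histone mRNA can enter a poly(A)-selected library such as these. They are the 3′ stem-loops, with 5 flanking bases on either side, of 6 replication-dependent genes that were called between the genotypes and of H2afx, cut from GENCODE transcripts on GRCm38 and written 5′ to 3′ with the stem-loop in capitals.
Hist1h1c: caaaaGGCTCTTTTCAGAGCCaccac
Hist1h1d: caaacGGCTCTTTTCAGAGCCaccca
Hist1h2ac: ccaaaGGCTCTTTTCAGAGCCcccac
Hist1h3d: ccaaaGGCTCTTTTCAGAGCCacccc
Hist1h4j: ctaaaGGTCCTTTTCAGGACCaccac
Hist3h2ba: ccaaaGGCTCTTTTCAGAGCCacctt
H2afx: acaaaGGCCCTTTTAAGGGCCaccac
The H1, H2A, H2B and H3 genes shown share their stem-loop letters. Those of the H4 gene Hist1h4j and of H2afx differ from them within the stem, and those of H2afx in the loop as well. The stem-loop, searched as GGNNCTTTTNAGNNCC on the transcribed strand, was present in the annotated transcripts of 36 of 52 replication-dependent genes and of 1 of 10 variant genes, which was H2afx. It was present in 89 of 55450 annotated genes, or 0.161%.

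Promoter sequences from RefSeq (GRCm38.p6, 250 bases before to 50 after the RefSeq start) were matched for 56 of the histone genes. Those shown here are of 3 linker histone genes of the Hist1 cluster that share a CCAAT box and an H1 box. The others are of the linker variant H1f0 and of the pair H3f3b and H3f3a, which encode the same H3.3 protein. No searched motif was found in the H1f0 window. That window ends at 79028261, upstream of the GENCODE start of H1f0 at 79028450. The bases next to that start were therefore not searched, and motifs there are not excluded. The windows of Hist1h1d, H3f3b and H3f3a lie inside their GENCODE genes, whose outermost starts are at 23553262, 116027962 and 180813943. Those starts were not searched either. Capitals mark the CCAAT box, the TATA box (searched as TATAAA), the E box (searched as CACGTG), the octamer bound by Pou2f1 (searched as ATTTGCAT) and the H1 box (searched as AAACACA). Each was searched on both strands, so that a match on the other strand appears as its reverse complement, and matches of different motifs were allowed to overlap. Each sequence runs 5′ to 3′ along the gene's own strand.
Hist1h1c, chr13:23738557-23738856, plus strand: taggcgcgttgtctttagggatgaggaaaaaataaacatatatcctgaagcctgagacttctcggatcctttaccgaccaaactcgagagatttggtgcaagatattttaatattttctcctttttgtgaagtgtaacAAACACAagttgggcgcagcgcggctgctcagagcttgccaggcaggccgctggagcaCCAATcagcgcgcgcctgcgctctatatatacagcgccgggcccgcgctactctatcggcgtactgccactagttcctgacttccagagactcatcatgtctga
Hist1h1d, chr13:23554782-23555081, plus strand: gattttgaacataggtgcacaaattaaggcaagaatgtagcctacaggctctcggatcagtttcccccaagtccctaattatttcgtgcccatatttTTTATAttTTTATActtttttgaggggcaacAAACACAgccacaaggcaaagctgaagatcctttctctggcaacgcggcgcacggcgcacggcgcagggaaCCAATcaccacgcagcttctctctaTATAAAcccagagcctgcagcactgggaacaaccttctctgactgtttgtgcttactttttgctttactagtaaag
Hist1h1e, chr13:23622509-23622808, minus strand: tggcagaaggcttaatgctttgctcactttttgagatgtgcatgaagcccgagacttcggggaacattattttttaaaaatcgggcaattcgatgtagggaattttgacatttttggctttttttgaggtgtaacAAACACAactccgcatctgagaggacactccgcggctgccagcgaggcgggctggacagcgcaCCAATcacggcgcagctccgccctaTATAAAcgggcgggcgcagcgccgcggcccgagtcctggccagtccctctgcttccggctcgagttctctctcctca
H1f0, chr15:79027962-79028261, plus strand: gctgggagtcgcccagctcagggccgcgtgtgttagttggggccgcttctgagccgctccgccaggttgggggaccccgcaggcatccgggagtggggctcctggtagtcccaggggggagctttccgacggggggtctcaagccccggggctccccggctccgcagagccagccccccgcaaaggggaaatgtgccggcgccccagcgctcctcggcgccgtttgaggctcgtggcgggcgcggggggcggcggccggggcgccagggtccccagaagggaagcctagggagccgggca
H3f3b, chr11:116024455-116024754, minus strand: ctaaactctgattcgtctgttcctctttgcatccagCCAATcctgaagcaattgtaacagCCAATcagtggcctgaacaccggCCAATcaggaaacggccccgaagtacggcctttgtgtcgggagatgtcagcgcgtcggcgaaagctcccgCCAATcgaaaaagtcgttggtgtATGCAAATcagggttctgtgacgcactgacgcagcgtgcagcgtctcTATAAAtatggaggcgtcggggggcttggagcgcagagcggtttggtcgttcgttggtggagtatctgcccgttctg
H3f3a, chr1:180813556-180813855, minus strand: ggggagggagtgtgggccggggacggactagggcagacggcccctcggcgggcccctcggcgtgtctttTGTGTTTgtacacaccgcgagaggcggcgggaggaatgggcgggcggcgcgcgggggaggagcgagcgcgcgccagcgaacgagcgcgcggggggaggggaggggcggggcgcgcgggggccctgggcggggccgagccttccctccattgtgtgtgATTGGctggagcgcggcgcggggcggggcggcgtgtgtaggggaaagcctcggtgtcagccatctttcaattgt
The H1 box lay at position -112 from the start in Hist1h1c, -122 in Hist1h1d and -115 in Hist1h1e, and at -117 in Hist1h1b. They were present in 4 of the 5 replication-dependent H1 genes. Among all 47 replication-dependent genes matched, 12.8% held them, against 7.18% of 32851 RefSeq promoters of the same length. The CCAAT box was present in 85.1% of the replication-dependent genes, in 66.7% of the 9 variant genes matched and in 37.4% of all promoters. The TATA box was present in 59.6%, 11.1% and 13.6% of these, and the octamer in 25.5%, 11.1% and 1.74%. The E box was found in none of the replication-dependent promoters, in 11.1% of the variant ones (H2afz) and in 7.15% of all. A match describes the letters only.

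In total, 27 histone genes had enough counts to be tested. Of the 52 replication-dependent genes, 17 were tested, and 7 of these were called lower, 1 higher and 9 in neither direction. The called genes were 41.2% of those tested and 13.5% of all 52 for the lower direction, against 25.0% lower among all tested genes. Of the 10 variant genes, all were tested, and 4 were called lower, none higher and 6 in neither direction. The median log2 fold change was -0.76 over the 17 and -0.34 over the 10, beside 0.016 over all 17652. Under library-total scaling the lower calls came to 6 and 2 and the higher calls to 2 and 3. Some of the 17 passed the count filter through 1 genotype, which fixes their direction in part. Among the 10 replication-dependent genes that passed in all libraries of both groups, 4 were called lower and none higher.

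**Figure D1:**
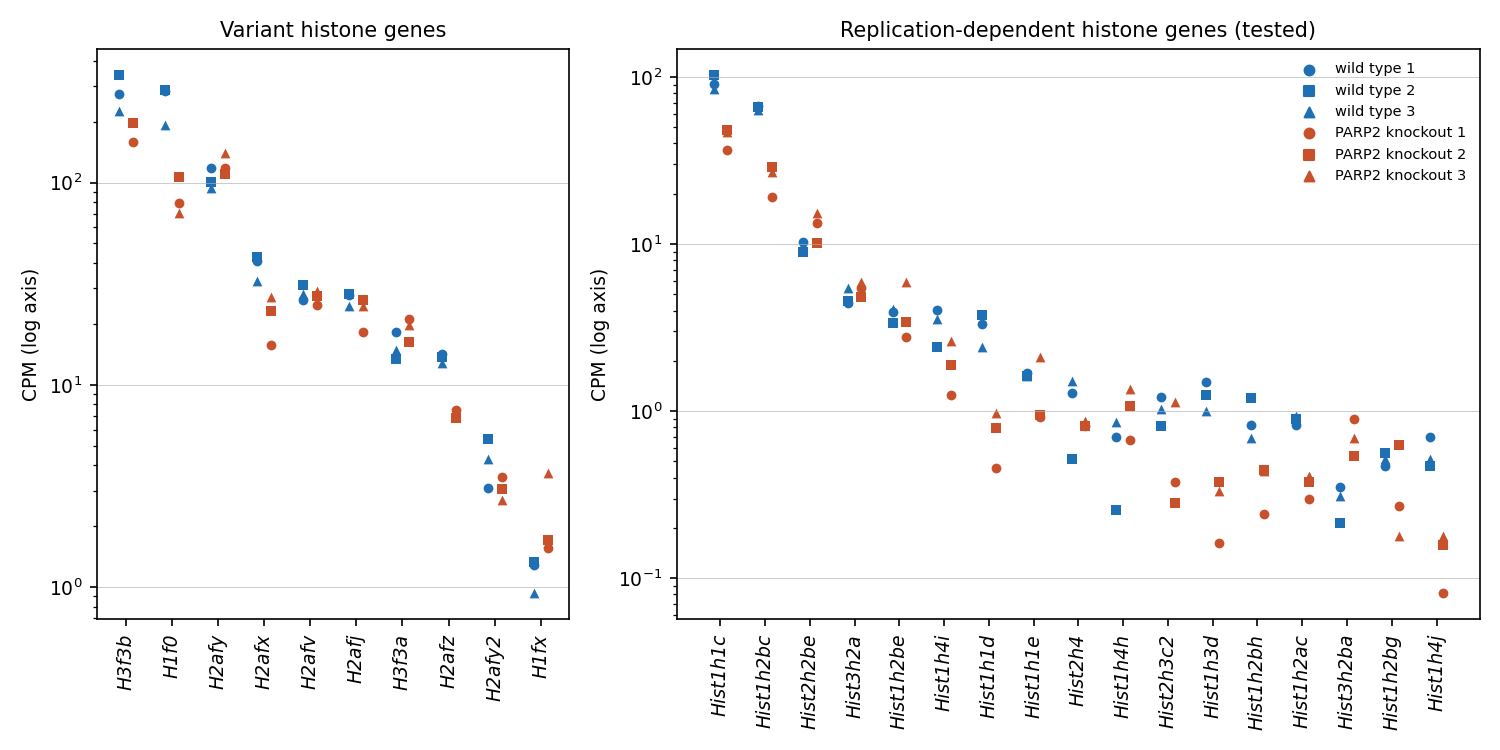
Level of each tested histone gene in CPM on a log axis, with 1 point per library (blue wild type, red knockout; shape gives the library number). H1f0, H2afz, Hist1h1c, Hist1h2bc, Hist1h1d and Hist1h3d show no overlap between genotypes, while H2afy, H2afv and Hist3h2a do overlap.

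Linker histones bind between nucleosomes, and H1f0 is the linker histone known to accumulate in differentiated and non-dividing cells. H1f0 (GRCm38 chromosome 15, 79028450 to 79030504, plus strand, a gene of 1 exon) had 283, 285 and 192 CPM in wild-type libraries 1 to 3 and 79.2, 107 and 70.6 CPM in knockout libraries 1 to 3. Every knockout library was below every wild-type library, and wild-type library 3 was the lowest of its group. The log2 fold change was -1.57 ± 0.222 (SE, edgeR adjusted p = 0.0034), and it stayed below 0.05 in all alternatives run, with adjusted p up to 0.0208. The 6 libraries ranked for H1f0 in the same order as for the summed acinar markers, and H1f0 was the only one, 1 of the 27 tested histone genes, for which this held. Whether the acinar share of the tissue bears on H1f0 was not tested. Exons of H1f0 share 163 bases with Gm49544 on the opposite strand, and those of H2afx 141 bases with Gm44335.

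The replication-dependent linker gene Hist1h1c lies on chromosome 13, 23738808 to 23740367, plus strand, and its 1 exon runs 840 bases past its stem-loop. Its values were 91.4, 103 and 84.8 CPM in the wild type and 36.6, 48.2 and 46.8 CPM in the knockout. The groups did not overlap, and the log2 fold change was -1.08 ± 0.135 (SE, edgeR adjusted p = 0.00261). Hist1h1d (chromosome 13, 23553262 to 23560686, plus strand) had 3.33, 3.74 and 2.41 CPM against 0.46, 0.789 and 0.977 CPM. It too was lower in every knockout library, by -2.08 ± 0.355 (SE, edgeR adjusted p = 0.00521). Hist1h1e was not called: wild-type libraries had 1.68, 1.63 and 1.62 CPM, and knockout libraries 0.919, 0.947 and 2.11 CPM. Knockout library 3 lay above every wild-type library and knockout libraries 1 and 2 lay below, giving -0.31 ± 0.381 (SE, edgeR adjusted p = 0.514). Exon overlaps of Hist1h1e on the same strand, added over Hist1h2be and Gm11398, came to 816 bases, so its counts are uncertain. A base under both neighbours enters that sum for each.

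H1fx, a variant linker histone, had 1.29, 1.33 and 0.93 CPM in the wild type and 1.57, 1.70 and 3.65 CPM in the knockout. The groups did not overlap, with knockout library 3 far above the others, and the gene was not called (0.97 ± 0.405, SE, edgeR adjusted p = 0.086). Under library-total scaling it was called. Over all 7 H1 genes, H1f0 gave most of the counts, and its share was 71.5% ± 3.22 (SD, n = 3) in the wild type and 63.6% ± 5.84 in the knockout.

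Among H2A genes, H2afz and H2afv encode the H2A.Z proteins, which mark promoters and enhancers and are placed by Srcap and Ep400 complexes. H2afz had 14.1, 13.7 and 12.9 CPM in the wild type and 7.49, 6.88 and 7.32 CPM in the knockout. The values were tight within each group and far apart between them, at -0.91 ± 0.115 (SE, edgeR adjusted p = 0.00273). H2afv had 26.3, 31.2 and 28.2 CPM against 24.9, 27.5 and 29.2 CPM, and these overlapped (-0.07 ± 0.106, SE, edgeR adjusted p = 0.584). H2afz made up 35.0, 30.5 and 31.4% of the counts of the pair in the wild type and 23.1, 20.04 and 20.1% in the knockout. All 3 knockout shares lay below all 3 wild-type shares. This share does not depend on how libraries are scaled, whereas the direction of H2afv does: under library-total scaling its log2 fold change was 0.33, and without knockout library 1 it was 0.0012.

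H2afx encodes H2A.X, the variant phosphorylated around DNA breaks, and its mRNA is known in both a stem-loop and a polyadenylated form. It had 41.1, 42.6 and 32.5 CPM in the wild type and 15.7, 23.1 and 27.2 CPM in the knockout. The groups did not overlap, at -0.81 ± 0.221 (SE, edgeR adjusted p = 0.0231). The call was lost without wild-type library 1 or 2 (edgeR adjusted p from 0.0656 to 0.0694) and under library-total scaling (0.1375), with 0.00235 to 0.1375 over all alternatives. H2afy and H2afy2 encode macroH2A, whose macrodomain in some forms binds ADP-ribose. H2afy ranged from 94.0 to 118 CPM in the wild type and from 111 to 141 CPM in the knockout, and H2afy2 from 3.09 to 5.37 CPM against 2.70 to 3.51 CPM. Both overlapped and neither was called (0.24 ± 0.13, SE, edgeR adjusted p = 0.163, and -0.46 ± 0.261, SE, edgeR adjusted p = 0.175). Under library-total scaling H2afy was called higher. H2afj, a variant known from senescent and luminal epithelial cells, ranged from 24.6 to 28.1 CPM and from 18.3 to 26.2 CPM, and was not called (-0.22 ± 0.153, SE, edgeR adjusted p = 0.246). With library-total scaling its log2 fold change was 0.17.

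The replication-dependent H2A genes were counted at low levels. Hist1h2ac had 0.822, 0.903 and 0.93 CPM in the wild type and 0.297, 0.379 and 0.411 CPM in the knockout, with no overlap between the groups (-1.28 ± 0.266, SE, edgeR adjusted p = 0.00949). It shares 108 exon bases on the same strand with Gm24991. Hist3h2a ranged from 4.46 to 5.48 CPM against 4.80 to 5.94 CPM and was not called (0.16 ± 0.182, SE, edgeR adjusted p = 0.472). Hist3h2a shares 708 such bases with Trim17. Summed over the 11 replication-dependent H2A genes, of which 2 were tested, the level was 6.42 ± 0.585 CPM (SD, n = 3) in the wild type and 5.999 ± 0.62 CPM in the knockout.

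Among H2B genes, Hist1h2bc had the highest level per kilobase of exon. It lies on chromosome 13, 23684199 to 23692908, plus strand, and its annotated transcript has 2 exons and no stem-loop. It had 67.5, 66.5 and 63.2 CPM in the wild type and 19.2, 28.9 and 26.9 CPM in the knockout. The wild-type libraries were close together and all knockout libraries lay far below them, at -1.40 ± 0.16 (SE, edgeR adjusted p = 0.00233). Hist2h2be, the other tested gene with no annotated stem-loop, had 10.3, 8.98 and 9.85 CPM in the wild type and 13.3, 10.2 and 15.4 CPM in the knockout. Its groups overlapped and it was not called (0.42 ± 0.177, SE, edgeR adjusted p = 0.0875), although it was called under library-total scaling and without knockout library 2. Hist1h2bh had 0.822, 1.20 and 0.689 CPM in the wild type and 0.243, 0.442 and 0.437 CPM in the knockout (-1.26 ± 0.372, SE, edgeR adjusted p = 0.0298). That call was lost without wild-type library 1 or 2 or knockout library 1 or 3, at adjusted p from 0.0569 to 0.0959, and also with sex as a term and under library-total scaling.

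Hist3h2ba, on chromosome 11, was the replication-dependent gene called higher. It had 0.352, 0.215 and 0.31 CPM in the wild type and 0.892, 0.536 and 0.694 CPM in the knockout, at 1.26 ± 0.346 (SE, edgeR adjusted p = 0.0235). Every knockout library was above every wild-type library, but the gene passed the count filter through the knockout alone. The call was lost without wild-type library 2 or 3 or knockout library 1 (edgeR adjusted p from 0.061 to 0.0799) and with the Wald test of DESeq2. Hist1h2be ranged from 3.35 to 4.06 CPM in the wild type and was at 2.78, 3.41 and 5.96 CPM in the knockout (0.10 ± 0.32, SE, edgeR adjusted p = 0.802). Knockout library 3 lay above all other libraries, as it did for Hist1h1e, with which Hist1h2be shares exon bases. Without that library the log2 fold change of Hist1h2be was -0.27, and with sex as a term it was -0.086. Hist1h2bg ranged from 0.47 to 0.559 CPM against 0.18 to 0.631 CPM and was not called.

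H3.3, made by H3f3a and H3f3b, replaces H3 at active and repeat chromatin through Hira and Atrx with Daxx. H3f3b had 272, 339 and 226 CPM in the wild type and 158, 197 and 199 CPM in the knockout. The groups did not overlap, though wild-type library 3 came close to the knockout, and the log2 fold change was -0.60 ± 0.176 (SE, edgeR adjusted p = 0.0298). The call was lost without wild-type library 1 or 2 or knockout library 1 or 3 (edgeR adjusted p from 0.056 to 0.108), with sex as a term, and under library-total scaling (adjusted p = 0.33), with 0.00421 to 0.33 over all alternatives. H3f3a had 18.3, 13.5 and 14.8 CPM in the wild type and 21.2, 16.2 and 19.7 CPM in the knockout, with overlap (0.29 ± 0.161, SE, edgeR adjusted p = 0.163). It was called higher under library-total scaling.

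H3f3a supplied 6.29, 3.81 and 6.16% of the counts of the H3.3 pair in the wild type and 11.8, 7.59 and 9.03% in the knockout. All knockout shares were above all wild-type shares. The opposite-strand transcript H3f3aos had 0.626, 0.903 and 0.551 CPM in the wild type and 1.92, 1.01 and 1.88 CPM in the knockout, and was called higher (1.21 ± 0.363, SE, edgeR adjusted p = 0.031). It shares 160 exon bases with H3f3a, and since the strand setting of the counting is not given in the sources used here, its reads and those of H3f3a cannot be told apart there.

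Of the 10 replication-dependent H3 genes, Hist1h3d and Hist2h3c2 were tested. Hist1h3d had 1.49, 1.25 and 0.999 CPM in the wild type and 0.162, 0.379 and 0.334 CPM in the knockout, with no overlap (-2.08 ± 0.381, SE, edgeR adjusted p = 0.00633). Hist2h3c2 had 1.21, 0.817 and 1.03 CPM against 0.379, 0.284 and 1.13 CPM, and of the knockout libraries, library 3 alone lay inside the wild-type range. It was not called (-0.76 ± 0.548, SE, edgeR adjusted p = 0.274), but without knockout library 3 its adjusted p was 0.0204, in a range of 0.0204 to 0.641 over all alternatives.

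H4, which has no variant gene in these lists, was measured through 4 of 11 genes. Hist1h4j had 0.704, 0.473 and 0.517 CPM in the wild type and 0.0811, 0.158 and 0.18 CPM in the knockout. The groups did not overlap (-1.99 ± 0.4, SE, edgeR adjusted p = 0.00857), and the gene passed the count filter through the wild type alone. Hist1h4i ranged from 2.41 to 4.03 CPM against 1.24 to 2.62 CPM (-0.80 ± 0.352, SE, edgeR adjusted p = 0.0977). Hist2h4 ranged from 0.516 to 1.52 CPM against 0.811 to 0.874 CPM, and Hist1h4h from 0.258 to 0.861 CPM against 0.676 to 1.36 CPM. These 3 overlapped and were not called.

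**Figure D2:**
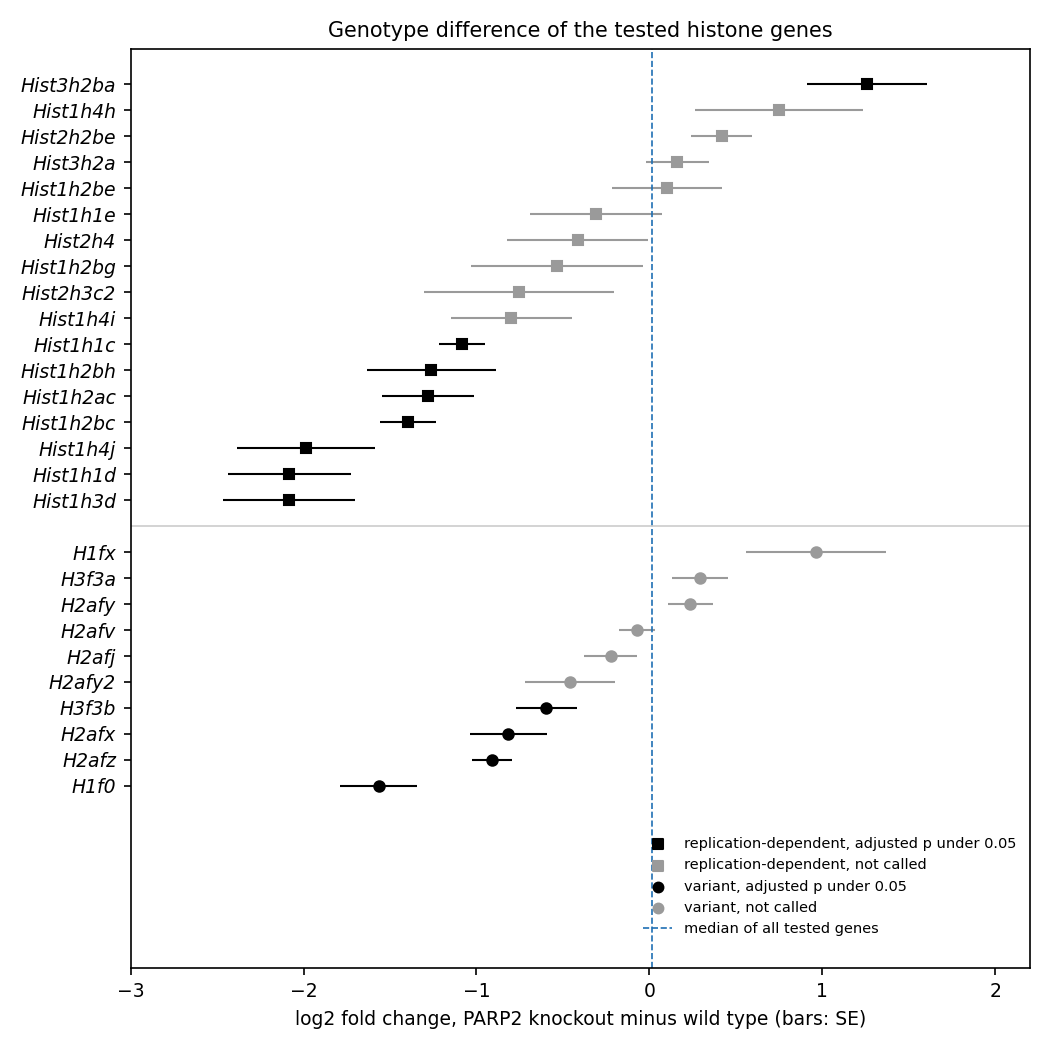
Log2 fold change (knockout minus wild type) of the 27 tested histone genes with SE, grouped into replication-dependent genes above and variant genes below, black where called at an adjusted p under 0.05. Hist1h3d and Hist1h1d lie lowest at -2.08 and Hist3h2ba highest at 1.26, and the dashed line is the median of all tested genes at 0.016.

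The remaining 35 replication-dependent genes were below the count filter, with means over the 6 libraries from 0.00879 to 0.257 CPM. Of these, 17 never passed 3 counts in a library. Together the 35 held 68 to 105 counts per wild-type library and 58 to 62 per knockout library, or 3.50 ± 0.525 CPM (SD, n = 3) and 1.69 ± 0.232 CPM. In a fit with no count filter, 2 of these 35 were called lower and none higher, which brought the replication-dependent genes called lower to 9. Both were singled out after their values were seen. Hist1h3g, an H3 gene, had 7, 4 and 12 counts in the wild type and 2, 2 and 0 in the knockout (edgeR adjusted p = 0.0262 without the filter). Hist1h2ae, an H2A gene, had 5, 4 and 5 counts against 0, 0 and 2 (edgeR adjusted p = 0.0363 without the filter). Each was lower in every knockout library, but at so few counts the size of either difference is poorly known.

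Summed over all 52 replication-dependent genes, the level was 198, 203 and 186 CPM in the wild type and 85.4, 106 and 114 CPM in the knockout. The knockout mean (101.7 ± 14.7 CPM, SD, n = 3) was 0.519 times the wild-type mean (195.7 ± 8.74 CPM). The 10 variant genes summed to 805, 861 and 630 CPM and to 447, 519 and 524 CPM. Their knockout mean was 0.649 times the wild-type mean. Most of that difference lay in H1f0 (means of 253 and 85.5 CPM) and H3f3b (279 and 185 CPM), and the H3f3b call was lost in several alternatives. Before scaling, the variant genes had 20575, 20038 and 18285 counts in the wild type and 16541, 16450 and 20407 in the knockout. These counts overlapped, so the separation of the summed variant levels depends on the scaling. The 6 variant H2A genes summed to 216 CPM in the wild type and 206 CPM in the knockout. No test was made of these sums, since the members were chosen with earlier results known. Replication-dependent genes gave 19.8, 19.1 and 22.8% of all histone counts in the wild type and 16.03, 16.9 and 17.8% in the knockout. The shares did not overlap, but they were set by few genes: without Hist1h1c and Hist1h2bc the other 50 genes summed to 37.1 ± 2.97 CPM in the wild type and 32.8 ± 6.40 CPM in the knockout.

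**Figure D3:**
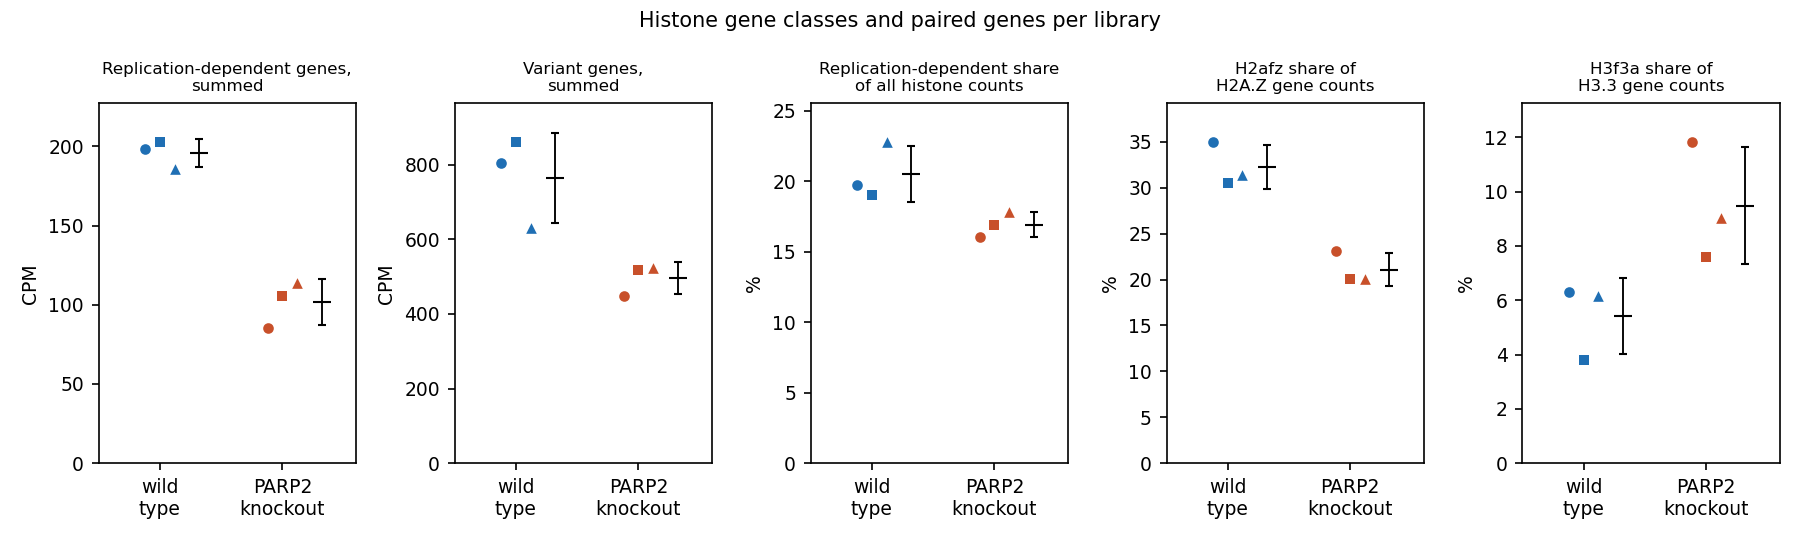
Summed CPM of both histone classes, the share of replication-dependent genes in all histone counts, and the shares of H2afz and H3f3a within their pairs. Each point is 1 library and the bar is the mean with its SD (n = 3), and in all 5 panels the genotypes do not overlap. Variant counts before scaling did overlap.

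The clusters differed in what they held. The Hist1 cluster on chromosome 13 (42 genes, 12 tested, 7 called lower and none higher) summed to 178 ± 10.1 CPM (SD, n = 3) in the wild type and 80.9 ± 14.4 CPM in the knockout. These calls stand beside 25.0% lower among all tested genes. One of them, Hist1h4j, passed the count filter through the wild type alone. Most of both sums came from Hist1h1c (means of 92.9 and 43.9 CPM) and Hist1h2bc (65.7 and 25.0 CPM). The Hist2 cluster on chromosome 3 (7 genes, 3 tested, none called) summed to 12.1 ± 1.25 and 14.5 ± 3.11 CPM, and the Hist3 pair on chromosome 11 to 5.12 ± 0.575 and 6.11 ± 0.688 CPM. Most of the Hist2 sums came from Hist2h2be (means of 9.71 and 13.0 CPM). The other tested Hist2 genes had lower knockout means: Hist2h4 1.11 and 0.835 CPM, and Hist2h3c2 1.02 and 0.598 CPM. Whether the clusters differ from one another was not tested. By histone, replication-dependent sums in the wild type and the knockout were 98.1 and 46.1 CPM for H1, 81.7 and 43.8 CPM for H2B, 2.91 and 1.21 CPM for H3 and 6.54 and 4.58 CPM for H4. Most of the H1 sums came from Hist1h1c and most of the H2B sums from Hist1h2bc, so the lower H2B sum is that of 1 gene. Hist2h2be, also an H2B gene, had the higher mean in the knockout.

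Per kilobase of exon, a scale that allows levels to be set between genes, H1f0 was highest in the wild type (123 ± 25.9 CPM per kb, SD, n = 3), followed by H3f3b (93.8 ± 19.2), Hist1h1c (59.6 ± 5.75), Hist1h2bc (56.9 ± 1.96) and H2afx (28.0 ± 3.95). The ranges of mean ± SD overlapped for H1f0 and H3f3b, and for Hist1h1c and Hist1h2bc. In the knockout H3f3b came first (62.0 ± 7.81 CPM per kb), then H1f0 (41.6 ± 9.14), Hist1h1c (28.1 ± 4.05), Hist1h2bc (21.6 ± 4.43), H2afy (18.1 ± 2.29), H2afv (16.6 ± 1.32) and H2afx (15.9 ± 4.24). From Hist1h1c to H2afx the range of mean ± SD of each gene overlapped that of the next in this order, although Hist1h1c was above Hist1h2bc in every knockout library. H1f0 was above H3f3b in 3 of 3 wild-type libraries and in 0 of 3 knockout libraries. Exon length was taken over all annotated transcripts of a gene, at 2055 bases for H1f0 and 2976 for H3f3b. The longest transcript of H3f3b has 2514 bases, and no other length was tried.

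Whether a replication-dependent gene could be measured differed with its annotated 3′ end. Of 36 with a stem-loop, 16 are annotated to end within 100 bases after it and 20 run further. Among the 16 that end there, 1 was tested (Hist1h4h), and among the 20 that run past it, 14 were. Median levels in the wild type were 0.132 CPM per kb for the 16 and 0.609 CPM per kb for the 20. In the knockout they were 0.0519 and 0.228 CPM per kb. The other 16 genes have no stem-loop annotated, and 2 of them were tested. The limit of 100 bases was chosen after the values were seen. Stranded mRNA kits select poly(A) RNA, and mRNA that ends at the stem-loop has no poly(A) tail, so these counts do not measure the whole output of the replication-dependent genes. These genes also resemble each other. The median share of 50-base words that a replication-dependent gene has in common with other transcripts was 46.4%, against 8.33% for a variant gene. How reads with several matches were counted is not given in the sources used here. That share ran from 39.5 to 78.9% for the 16 genes that end near the stem-loop and from 1.01 to 73.4% for the 20. Their exon lengths were 391 to 706 bases and 614 to 7425 bases. Which of these traits bears on being measured was not tested.

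**Figure D4:**
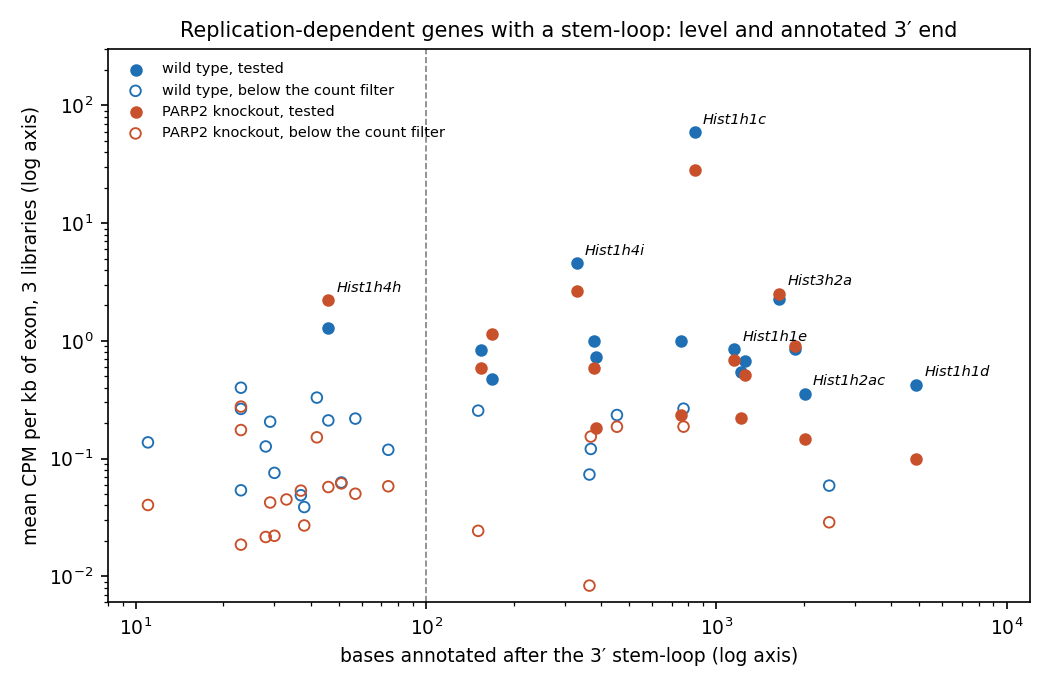
Mean CPM per kb of exon against the bases annotated after the stem-loop, both on log axes, for the 36 replication-dependent genes with a stem-loop (filled, tested; open, below the count filter; 1 gene at 0 in the wild type has no blue point). Of the genes left of the dashed line at 100 bases, Hist1h4h alone is filled.

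Genes that make, carry and place histones were read from lists drawn up for the purpose, beside 28.0% higher and 25.0% lower among all tested genes. Of 19 genes of histone transcription and mRNA processing, 4 were called higher and 8 lower, with a median of -0.25. Slbp, which binds the stem-loop, had 26.1, 24.6 and 24.4 CPM in the wild type and 30.5, 30.1 and 32.9 CPM in the knockout (0.32 ± 0.083, SE, edgeR adjusted p = 0.0201). Zfp473, a protein of the U7 snRNP pathway, had 5.52, 6.92 and 6.13 CPM against 2.03, 1.99 and 2.004 CPM (-1.62 ± 0.182, SE, edgeR adjusted p = 0.00227). Casp8ap2, a component of histone locus bodies (0.66), Pou2f1, which binds the octamer (0.72), and Tut7, a uridylyltransferase (0.49), were higher, while Cstf2 (-0.42), Cpsf3 (-0.34) and Sympk (-0.33), of the cleavage complex, were lower in log2 terms. The Slbp call was lost without wild-type library 2 or 3 (edgeR adjusted p from 0.0676 to 0.0791) and that of Sympk without wild-type library 1 or 2 or knockout library 1 (0.0635 to 0.0673). Leaving out 1 library gave 3 to 7 lower calls (3 without wild-type library 1 or knockout library 1), and under library-total scaling Cpsf3 (0.067) and Sympk (0.07004) changed sign and 1 gene was lower.

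Of 19 genes that supply histones during replication, 13 were called lower and 1 higher, with a median of -0.55. Chaf1a, the large subunit of the assembly factor CAF-1, had 32.4, 31.5 and 29.9 CPM in the wild type and 15.5, 15.97 and 15.8 CPM in the knockout (-0.99 ± 0.081, SE, edgeR adjusted p = 0.00201). Its partner Chaf1b (-0.96), the histone chaperone Nasp (-0.82) and the H4 acetyltransferase Hat1 (-0.60) were lower too. Cdan1, the gene called higher (0.36), was not called without any one of wild-type libraries 1, 2 or 3 or knockout libraries 1 or 3 (edgeR adjusted p from 0.0604 to 0.0823).

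Of 22 genes of variant deposition, 8 were called lower and 3 higher, with a median of 0.03. Ruvbl1 (-1.11) and Ruvbl2 (-1.03), ATPases shared by the H2A.Z complexes, were lower, while Srcap (0.60) and Ep400 (0.63), the motor subunits of those complexes, and Atrx (0.52) were higher. Cenpa, the centromeric H3 variant, fell from 63.4, 62.1 and 61.2 CPM to 28.3, 28.1 and 29.3 CPM (-1.12 ± 0.07, SE, edgeR adjusted p = 0.00201). The Srcap call was lost without wild-type library 1 or 3 or knockout library 1 or 3 (edgeR adjusted p from 0.0804 to 0.101).

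Among 14 tested genes of linker-binding and non-histone chromatin proteins, 8 were called lower and 2 higher, with a median of -0.44. Npm1, a nucleolar histone chaperone, had 478, 461 and 429 CPM in the wild type and 156, 225 and 135 CPM in the knockout (-1.41 ± 0.201, SE, edgeR adjusted p = 0.00341). Npm3 (-1.03), Hmga1 (-0.82) and Hmgb3 (-1.34) were lower, while Hmgn3 (0.99) and the H1-like protein Hp1bp3 (0.41) were higher. The Hp1bp3 call was lost without wild-type library 1 or 2 or knockout library 1 (edgeR adjusted p from 0.0518 to 0.0555), leaving 1 higher call.

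Of 25 genes of S phase and mitosis, 23 were called lower and none higher, with a median of -0.92. Some genes called lower are in this list and also in that of histone supply during replication, so the counts of these lists are not separate. Ccna2, the S phase cyclin, had 150, 145 and 136 CPM in the wild type and 33.6, 50.4 and 40.8 CPM in the knockout (-1.79 ± 0.156, SE, edgeR adjusted p = 0.00201). Plk1 (-1.89), Tyms (-1.56) and the licensing factor Cdt1 (-1.07) were lower too. Their part in the levels of the replication-dependent histone genes was not tested. Of 11 genes that add, bind or remove ADP-ribose, 4 were called lower and 1 higher: Parp2 itself, Aplf (-0.58), Chd1l (-0.43) and Parp1 (-0.30) were lower and Parp3 (0.99) was higher. Parp2 is the gene knocked out, so its lower call follows from the design and adds nothing to this count. Parp1 was not called without any one of wild-type libraries 1, 2 or 3 or knockout libraries 1 or 3 (edgeR adjusted p from 0.0547 to 0.126), nor Chd1l without wild-type library 2 or knockout library 1 (0.0642 to 0.073). Without wild-type library 2 or knockout library 1, 2 genes of this list were called lower.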

How the data were processed

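RNA was sequenced from pancreas of 6 mice. Per the labels' protocols, stranded mRNA libraries were made. The submitters' processing notes name GRCm38 and list STAR 2.5.3a, DESeq2 1.28.1 and FastQC 0.11.5. The authors deposited whole-number counts per gene, not normalised, and log2 values, which matched log2 of DESeq2-scaled counts plus 1 within 5.15e-14. Which program counted reads, with what strand setting, and what it did with multiply matching reads is not given in the sources used here.

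Counts were fitted with the quasi-likelihood test of edgeR 4.0.16 in R 4.3.3 (TMM, robust, genotype only, all 6 libraries), after a filter by expression with a minimum count of 10, and adjusted by Benjamini-Hochberg over 17652 genes at 0.05. The fit was tested on simulated data. CPM values use TMM-scaled library sizes. Replicates of a genotype came from different animals, and chi-square per degree of freedom between them was 29.1 to 461, so none were the same library. Alternatives were DESeq2 1.42.0 size factors or Wald test, library totals alone, TMM without acinar genes, no filter, sex as a term, and each library left out. Sex was read from Xist and Y-linked genes: wild-type libraries 1 and 2 and knockout library 1 were male and the other 3 female, so sex was not balanced between genotypes. Each SE was taken as |log2 fold change| over the root of F.

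Genes named are Parp2, all variant genes, replication-dependent genes that were called or among the 12 most abundant, and up to 4 called genes of smallest p per direction in each list. Hist1h2bg was named after its values were seen. Of the genes this rule names, 1 is not reported here. The members, lists and tests were chosen with earlier results of these data known.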

Additional observations from a re-analysis of the deposited data

How the results depend on the processing

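No paired analysis was possible because the labels give no replicate numbers shared between the genotypes. Under library totals alone, with main values in parentheses, replication-dependent genes had 2 higher calls (1), variant genes 3 higher (0) and 2 lower (4), the mRNA processing list 1 lower (8), the replication supply list 5 higher (1) and 4 lower (13), the deposition list 12 higher (3) and 5 lower (8), the linker list 4 lower (8), S phase and mitosis 15 lower (23), ADP-ribose 4 higher (1) and 1 lower (4), and all genes 7475 higher (4938) and 2160 lower (4415). The DESeq2 Wald test gave 0 replication-dependent genes higher, and sex as a term 4 processing genes lower. Leaving out 1 library gave 0 to 2 replication-dependent genes higher, 2 to 4 variant genes lower, 3 to 7 processing genes lower, 0 to 2 supply genes higher, 1 to 2 linker genes higher, 2 to 6 ADP-ribose genes lower and 2543 to 5032 of all genes lower. Summed replication-dependent CPM was 170.2 in the wild type and 116.8 in the knockout under library totals, and 102.8 and 57.8 without the most abundant gene. Summed variant CPM in the knockout was 570.8 under library totals, beside 496.9 in the main scaling. Variant counts before scaling overlapped between the genotypes, so their separation in the summed CPM depends on the scaling. Without the most abundant gene, summed variant CPM was 486.2 in the wild type and 312.4 in the knockout. The replication-dependent share was then 17.6% and 15.6%. Log2 fold changes that turned sign were H2afv (0.33 under totals, -0.14 to 0.0012 with 1 library left out), H2afj (0.17), Hist1h1e (0.11), Cpsf3 (0.067), Sympk (0.07004) and Parp1 (0.11) under totals, and Hist1h2be (-0.086 with sex as a term, -0.27 without knockout library 3). The cause was not tested. H1f0, H2afz, Hist1h1c, Hist1h2bc, Hist1h1d, Hist1h3d, Hist1h2ac and Hist1h4j kept their calls in all alternatives run, with adjusted p of at most 0.049. Of these, Hist1h4j passed the count filter through the wild type alone, which fixes its direction in part. The p-values measure the spread among 3 animals a group, and genes below 1 CPM rest on few counts.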
